A study of Canis lupus familiaris with 15 samples.

Results

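The genes described here build, branch, cap, bundle and anchor actin filaments in MDCK cells, a line of dog kidney epithelium that grows as a polarised layer on a porous filter. The list holds 45 genes, chosen by name with earlier results of these data known. It covers cytoplasmic actins, the Arp2/3 complex and its regulators, monomer binders, capping and severing proteins, cross-linkers, side binders, non-muscle myosin II, membrane linkers and adhesion plaque proteins. The platform annotation names a probe set for 43 of the 45, and 41 could be measured, out of 10287 genes with a usable probe set. PFN2 and MYL12A had no annotated probe set, MYL9 had only 1 below the level used, and ACTB was read only through the array maker's control probe sets.

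RNA came from MDCK cultures kept on Transwell filters for 7 days and was hybridised to 15 canine arrays, 1 per culture. The HGF + PD group (n = 4) received hepatocyte growth factor (HGF) at 100 ng/ml for 24 h together with 50 uM of a compound that the labels spell PD09859. The HGF + UO group (n = 3) received the same HGF and 10 uM of a compound spelled UO126. The HGF group (n = 4) received HGF alone, and the Control group (n = 4) only medium. Both are MAPK inhibitors by the title of the series, and the names were read as misspelt MEK inhibitors. No arrays of a compound without HGF were analysed, no vehicle is named in the labels, and every group is 1 line on 1 kind of filter. The arrays are labelled as biological replicates, but how far apart the cultures were grown is not said, and the spread behind each p-value may be technical. The comparisons ask which of these genes differ with HGF and whether they differ when an inhibitor is given with it.

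Actin exists as single molecules and as filaments, and the balance between them is set by proteins that start, branch, lengthen, cap, cut and bundle filaments. In a polarised epithelium filaments form a belt at the cell junctions, the cores of apical microvilli and anchors at the matrix. HGF is the ligand of the receptor MET and makes MDCK cells scatter, which involves rebuilding of these structures. Many genes of actin and its binding proteins are known targets of serum response factor (SRF) and its actin-sensing coactivators.

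Values below are log2 of the deposited intensities, and a change is a difference of log2 means ± its standard error (SE). A gene was read by its brightest probe set. It counts as higher or lower where the adjusted p was under 0.05 in limma, with Benjamini-Hochberg adjustment over 24904 probe sets, and adjusted p-values below come from that fit. Every one of the 41 genes was above the level used on all 15 arrays. Levels of different genes are not comparable, since probe sets differ in brightness. Shares over all probe sets include dim sets and several sets of a gene, so they are not matched to the brightest sets of the 41 genes. The arrays had median intensities from 40.4 to 42.6. All 7 annotated epithelial markers were measured, with summed intensities of 76630 to 97086 in HGF + PD, 82431 to 90570 in HGF + UO, 79368 to 95978 with HGF and 107544 to 117463 in Control. The fibroblast markers COL1A1, COL1A2, POSTN, DCN and LUM, the muscle markers ACTA2 and MYOCD, the endothelial markers VWF and TEK and the leukocyte markers PTPRC, ITGAM and CSF1R were below the level used.

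With HGF, 32 of the 41 genes rose, 1 fell and 8 did not pass. Over all probe sets, 26.3% were higher and 29.2% lower. The median change of the 41 genes was 0.63, against -0.02 over all probe sets. A change of 1 or more was seen in 12 of the 41 genes and in 13.9% of all probe sets. In 31 of the 41 genes no HGF array overlapped a Control array, which held for 51.7% of all probe sets. The 8 genes that did not pass were CAPZB, VIL1, TPM1, TPM2, CNN2, TAGLN, EZR and RDX. On each array the median level of the 41 genes was 12.47, 12.58, 12.80 and 12.66 with HGF, and 11.84, 11.74, 11.77 and 11.77 in Control.

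In HGF + PD cultures 34 of the 41 genes were lower than with HGF alone, 0 were higher and 7 did not pass, where 25.1% of all probe sets were lower and 30.3% higher. The arrays of 35 genes did not overlap between these groups, against 55.6% of all probe sets, and 14 genes were lower by 1 or more, where 13.6% of all probe sets changed as much. The median change was -0.73, against -0.01 over all probe sets. In HGF + UO cultures 35 genes were lower, 0 higher and 6 did not pass, where 25.2% of all probe sets were lower and 27.2% higher, with a median change of -0.70. Here 35 genes did not overlap, against 54% of all probe sets, and 13 were lower by 1 or more, against 13.6%. In both inhibitor groups limma called 0 genes higher than HGF, 0 passed as higher at an unadjusted p under 0.05, and the count was 0 under each alternative run. The per-array median level was 11.77, 11.68, 11.69 and 11.69 in HGF + PD, and 11.75, 11.83 and 11.72 in HGF + UO, below each of the 4 HGF arrays. These comparisons use the same HGF arrays as the comparison of HGF with Control, so the changes are set side by side and their resemblance is not tested.

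**Figure D1:**
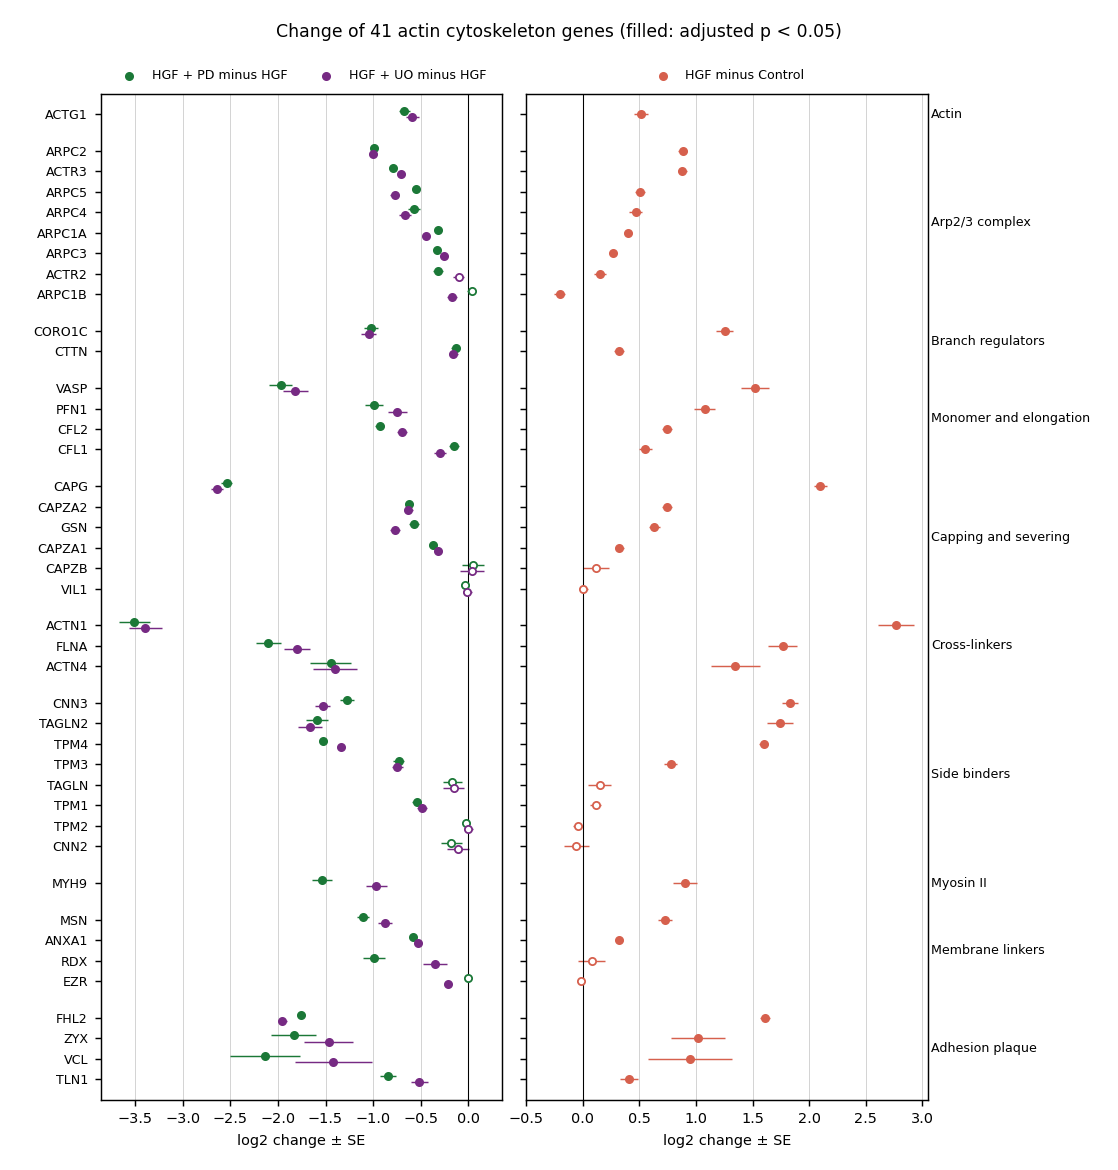
Log2 change ± SE of the 41 measured genes, grouped by role. The left panel shows both inhibitor groups against HGF and the right panel HGF against Control, with filled points at an adjusted p under 0.05 and open points otherwise. In the right panel 32 filled points lie right of 0 and the 1 filled point left of it is ARPC1B, and no filled point lies right of 0 in the left panel.

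Actin itself was higher with HGF. ACTG1, cytoplasmic gamma-actin, read 14.79, 15.08, 14.92 and 14.93 in HGF + PD and 15.05, 14.97 and 15.03 in HGF + UO. It read 15.50, 15.71, 15.63 and 15.58 with HGF alone and 15.15, 15.06, 15.17 and 14.98 in Control. All 4 HGF arrays stood above the other 11. The change was 0.51 ± 0.06 for HGF against Control (adjusted p = 3.09e-06), -0.67 ± 0.06 for HGF + PD against HGF and -0.59 ± 0.06 for HGF + UO against HGF.

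By the platform annotation ACTB, cytoplasmic beta-actin, has 4 control probe sets, at the 3′ end, the middle and the 5′ end of its transcript. Its 1 other annotated set was below the level used. The array maker marks 3 of the control sets as probe sets that may also bind other sequences, and whether gamma-actin RNA adds to them was not tested. The only ACTG1 set carries such a mark too, and whether beta-actin RNA adds to it was not tested. Brightest sets of other genes carry it as well, among them ACTN1, ACTN4, FLNA, VASP, PFN1, CAPG, CNN3, TAGLN2, ZYX and MSN. The fit of the ACTB sets, with control probe sets added, was chosen after seeing the data. The 5′ set without that mark read 10.16, 10.38, 10.34 and 10.34 in HGF + PD and 10.17, 10.28 and 10.24 in HGF + UO. It read 11.52, 11.57, 11.49 and 11.57 with HGF and 10.10, 10.31, 10.34 and 10.23 in Control. Again no HGF array overlapped another group. Its change was 1.30 ± 0.06 with HGF (adjusted p = 2.09e-10), and the marked sets changed by 0.81 (3′), 0.82 (middle) and 1.57 (5′). Against HGF the unmarked 5′ set was lower by 1.23 in HGF + PD and by 1.31 in HGF + UO.

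**Figure D2:**
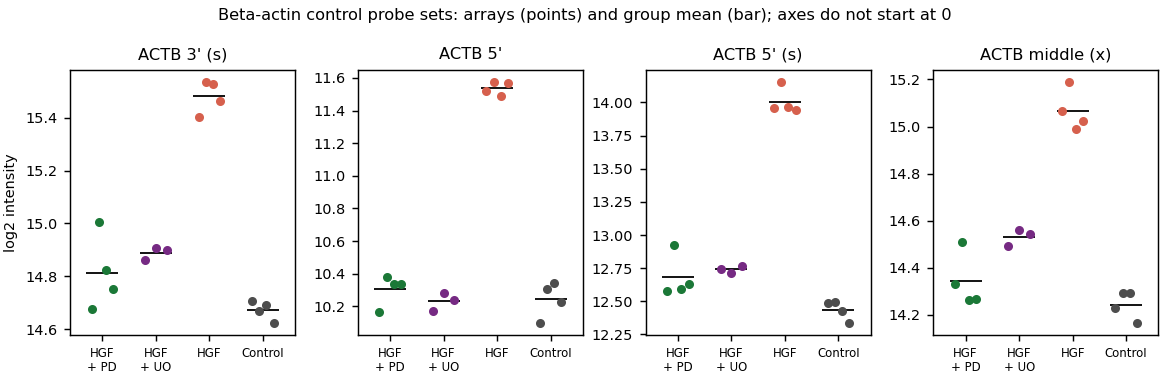
Log2 intensity of the 4 beta-actin control probe sets on each array (points) with the group mean (bar); s and x mark sets that may bind other sequences, and the axes have different ranges that do not start at 0. On each set the 4 HGF arrays lie above all arrays of the other groups.

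The 3′ and 5′ sets of ACTB serve as a check of RNA length, and their gap moved with the groups. The log2 ratio of the marked 3′ set to the marked 5′ set was 2.13 ± 0.07 in HGF + PD (SD, n = 4) and 2.15 ± 0.04 in HGF + UO (SD, n = 3). It was 1.48 ± 0.08 on HGF arrays (SD, n = 4) and 2.24 ± 0.05 on Control arrays (SD, n = 4), with a two-sided exact permutation p of 0.0286, the smallest that 4 against 4 allows, and 0.0527 after adjustment over 24 comparisons. The ratio was higher than with HGF by 0.65 in HGF + PD and by 0.67 in HGF + UO, at the same permutation and adjusted p-values. Another pair of actin control sets, not among those above, gave a 3′ to 5′ ratio lower with HGF than in Control by 0.73. The same ratio for GAPDH was 1.98 ± 0.07 in HGF + PD, 2.24 ± 0.03 in HGF + UO, 1.95 ± 0.03 with HGF and 2.03 ± 0.04 in Control. In HGF + UO it was higher than in HGF + PD by 0.25, than with HGF by 0.29 and than in Control by 0.21, each with an exact permutation p of 0.0286, the smallest possible, and 0.0527 after adjustment. With HGF the GAPDH ratio was lower than in Control by 0.08, at the same permutation and adjusted p-values. The part of these ratios in the changes of single genes was not tested.

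The Arp2/3 complex starts new filaments as branches on the side of existing ones. All 8 of its subunits on the list were measured, and 7 rose with HGF while 1 fell. ARPC2, a subunit of the complex core that binds the mother filament, read 13.42, 13.49, 13.48 and 13.50 in HGF + PD, 13.51, 13.37 and 13.48 in HGF + UO, 14.42, 14.48, 14.45 and 14.49 with HGF and 13.68, 13.53, 13.54 and 13.56 in Control. It rose by 0.88 ± 0.04 with HGF (adjusted p = 1.24e-10) and was lower than HGF by 0.99 in HGF + PD and by 1.00 in HGF + UO. ACTR3, the actin-related subunit Arp3, read 13.49, 13.63, 13.57 and 13.61 in HGF + PD, 13.67, 13.73 and 13.59 in HGF + UO, 14.34, 14.36, 14.36 and 14.42 with HGF and 13.57, 13.44, 13.46 and 13.50 in Control. For both genes the HGF arrays lay above all others. ACTR3 rose by 0.88 ± 0.04 (adjusted p = 1.9e-10) and was lower than HGF by 0.79 in HGF + PD and by 0.71 in HGF + UO.

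The other subunits changed less with HGF: ARPC5 by 0.50, ARPC4 by 0.47, ARPC1A by 0.40, ARPC3 by 0.27 and ACTR2 (Arp2) by 0.15. The change of ACTR2 had an adjusted p of 0.0236 and overlapping arrays. It did not pass without Control 4, HGF 2 or HGF 3 (adjusted p from 0.0537 to 0.0737), while its other 2 probe sets rose by 0.39 and 0.51. ARPC1B was the only gene on the list that fell. It encodes 1 of the 2 alternative forms of the propeller-shaped subunit ARPC1. ARPC1B read 12.03, 12.10, 12.19 and 12.12 in HGF + PD and 11.92, 11.91 and 11.88 in HGF + UO. It read 11.94, 12.14, 12.13 and 12.09 with HGF and 12.30, 12.28, 12.22 and 12.31 in Control, a change of -0.20 ± 0.05 (adjusted p = 0.00178). Its paralogue ARPC1A read 12.93, 13.01, 12.91 and 12.98 with HGF and 12.64, 12.54, 12.52 and 12.53 in Control, a change of 0.40 ± 0.03 (adjusted p = 9.36e-08). The 2 genes are neighbours in the RefSeq gene order. A dimmer ARPC1A probe set fell by 0.44 ± 0.10 (adjusted p = 0.00174) where its other 2 sets rose by 0.40 and 0.62, so the probe sets of ARPC1A disagree.

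Against HGF the change of ARPC1B was 0.04 ± 0.05 in HGF + PD, which did not pass (adjusted p = 0.522), and -0.17 ± 0.05 in HGF + UO (adjusted p = 0.0111). All 11 arrays with HGF, with or without an inhibitor, lay below the 4 Control arrays. ACTR2 was the other subunit that did not pass in an inhibitor group, at -0.10 ± 0.06 in HGF + UO (adjusted p = 0.168).

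Both regulators of branches on the list rose. CORO1C, a coronin that binds filaments and the Arp2/3 complex, read 8.68, 8.74, 8.43 and 8.75 in HGF + PD, 8.70, 8.58 and 8.59 in HGF + UO, 9.54, 9.79, 9.65 and 9.72 with HGF and 8.45, 8.38, 8.49 and 8.37 in Control. Its rise with HGF was 1.25 ± 0.07 (adjusted p = 3.1e-09), and no HGF array overlapped another group. CTTN, cortactin, which stabilises branches, read 13.42, 13.29, 13.27 and 13.41 in HGF + PD, 13.35, 13.35 and 13.27 in HGF + UO, 13.49, 13.57, 13.47 and 13.38 with HGF and 13.13, 13.17, 13.13 and 13.20 in Control. All 11 arrays with HGF lay above the 4 Control arrays, also under an inhibitor, and the rise with HGF alone was 0.32 ± 0.04 (adjusted p = 1.9e-05). It was lower than HGF by 0.13 in HGF + PD (adjusted p = 0.0191) and by 0.16 in HGF + UO (adjusted p = 0.012). These calls were lost without HGF + PD 2, HGF + PD 3 or HGF 2 in the first case (adjusted p up to 0.0653) and without HGF + UO 3 in the second (0.0601).

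Among the proteins that handle monomers and lengthen filaments, all 4 measured genes rose. VASP, which lengthens filaments at their growing ends, read 10.56, 11.22, 10.81 and 10.59 in HGF + PD, 10.99, 10.92 and 10.94 in HGF + UO, 12.61, 12.83, 12.84 and 12.79 with HGF and 11.25, 11.26, 11.44 and 11.04 in Control. The change with HGF alone was 1.52 ± 0.12 (adjusted p = 7.66e-08). PFN1, profilin, which feeds actin monomers to growing ends, read 12.02, 12.33, 12.11 and 12.03 in HGF + PD, 12.35, 12.50 and 12.25 in HGF + UO, 12.98, 13.26, 13.09 and 13.13 with HGF and 12.13, 12.10, 12.13 and 11.78 in Control. PFN1 rose by 1.08 ± 0.09 with HGF (adjusted p = 1.53e-07). The HGF arrays of VASP and of PFN1 lay above those of all other groups.

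The cofilins sever and disassemble filaments, and both rose. CFL2 rose by 0.74 ± 0.05 with HGF, and was lower than HGF by 0.93 in HGF + PD and by 0.70 in HGF + UO. CFL1 read 14.60, 14.37, 14.52 and 14.58 in HGF + PD, 14.44, 14.34 and 14.34 in HGF + UO, 14.72, 14.71, 14.59 and 14.64 with HGF and 14.00, 14.17, 14.06 and 14.22 in Control. The Control arrays lay below all others, and the rise with HGF was 0.55 ± 0.06 (adjusted p = 9.99e-07). Against HGF the change was -0.15 ± 0.06 in HGF + PD (adjusted p = 0.0379), with HGF + PD 1 inside the HGF range, and -0.29 ± 0.06 in HGF + UO (adjusted p = 0.000904). The HGF + PD call was lost without HGF + PD 2, HGF + PD 3, HGF 1, HGF 2 or HGF 4 (adjusted p from 0.0536 to 0.126). Whether the 2 genes differed in their change was not tested.

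Of the 6 capping and severing genes, 4 rose. CAPG, a gelsolin-family protein that caps but does not cut filaments, read 12.30, 12.49, 12.49 and 12.40 in HGF + PD, 12.42, 12.34 and 12.20 in HGF + UO, between 14.88 and 15.04 on the 4 HGF arrays, and 12.94, 12.93, 12.80 and 12.78 in Control. Each array with an inhibitor lay below every Control array. With HGF alone CAPG rose by 2.10 ± 0.06, or 4.28-fold (adjusted p = 1.57e-12). Against HGF it changed by -2.54 ± 0.06 in HGF + PD and -2.64 ± 0.06 in HGF + UO. CAPZA2, an alpha subunit of the capping protein, read 14.44, 14.22, 14.34 and 14.26 in HGF + PD, 14.27, 14.33 and 14.32 in HGF + UO, 14.98, 14.86, 14.94 and 14.96 with HGF and 14.14, 14.21, 14.20 and 14.24 in Control. With HGF alone the rise was 0.74 ± 0.04 (adjusted p = 2.63e-09), with the HGF arrays above all others.

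The other alpha subunit, CAPZA1, rose by 0.32, and GSN, gelsolin, which cuts and caps filaments, by 0.63. The beta subunit CAPZB changed by 0.12 ± 0.12 (adjusted p = 0.417) on its brightest probe set, though a second set rose by 0.59 ± 0.17 (adjusted p = 0.00787). VIL1, villin of the microvillus core, changed by 0.00 ± 0.04 and averaged 6.71 with HGF and 6.70 in Control. The VIL1 set gave an identical value, 6.69, on Control 3, Control 4 and HGF 1. It may lie near a floor, where a change could go unseen. VIL1 and CAPZB did not pass in either inhibitor group against HGF.

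All 3 cross-linkers rose, each by over 1 on the log2 scale. ACTN1, alpha-actinin of stress fibres and adhesions, read 7.86, 8.44, 8.12 and 7.85 in HGF + PD, 8.34, 8.05 and 8.15 in HGF + UO, 11.31, 11.57, 11.81 and 11.61 with HGF and 8.84, 8.69, 9.21 and 8.49 in Control. Its rise with HGF of 2.77 ± 0.16, or 6.82-fold (adjusted p = 2.53e-09), was the largest on the list, and its other probe sets rose by 2.81 and 0.77. All 7 arrays with an inhibitor lay below the 4 Control arrays. The changes against HGF were -3.51 ± 0.16 in HGF + PD and -3.39 ± 0.17 in HGF + UO. FLNA, filamin, which joins filaments into nets, read 10.19, 10.78, 10.56 and 10.53 in HGF + PD, 11.04, 10.57 and 10.84 in HGF + UO, 12.42, 12.58, 12.80 and 12.66 with HGF and 10.89, 10.87, 10.99 and 10.65 in Control. It rose with HGF, and the change was 1.77 ± 0.13 (adjusted p = 2.51e-08). ACTN4, the other non-muscle alpha-actinin, rose by 1.35 ± 0.21.

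**Figure D3:**
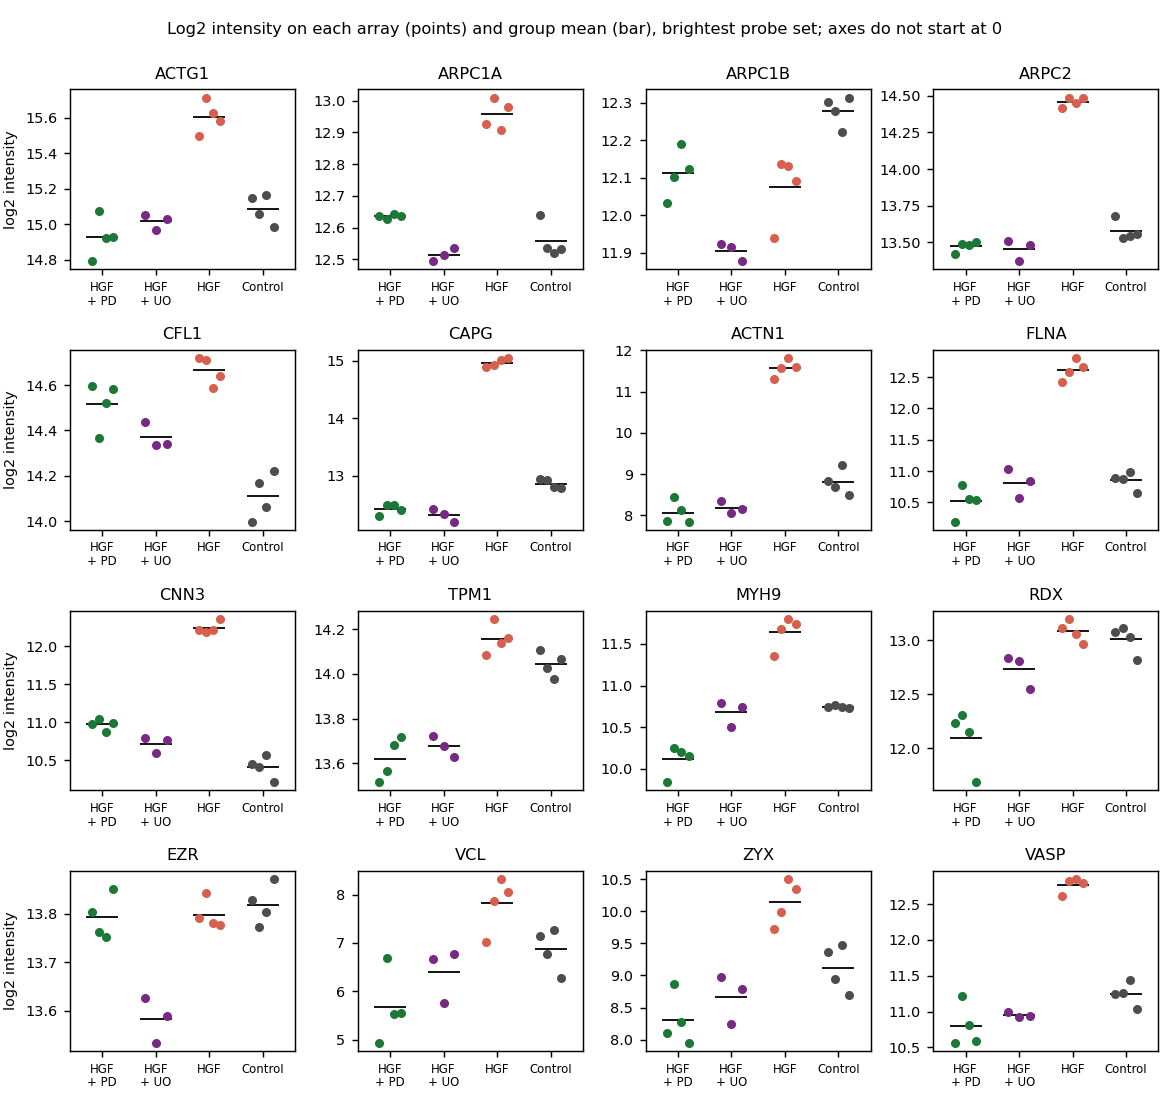
Log2 intensity of 16 genes on each array (points) with the group mean (bar), by group from left to right HGF + PD, HGF + UO, HGF and Control; axes have different ranges and do not start at 0. For ACTN1 the 4 HGF arrays lie between 11.31 and 11.81 and all other arrays at 9.21 or below, while EZR and RDX overlap between HGF and Control.

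Proteins that bind along filaments were split: 4 of 8 rose and 4 did not pass. CNN3, a calponin of non-muscle cells, read 10.98, 11.05, 10.88 and 10.99 in HGF + PD, 10.79, 10.60 and 10.77 in HGF + UO, 12.22, 12.18, 12.22 and 12.36 with HGF and 10.46, 10.41, 10.58 and 10.21 in Control. It rose by 1.83 ± 0.07 with HGF (adjusted p = 4.65e-11), and each array with an inhibitor lay between the HGF and the Control arrays. TAGLN2, a transgelin found in many cell types, read 10.28, 10.63, 10.68 and 10.65 in HGF + PD, 10.61, 10.26 and 10.58 in HGF + UO, 12.05, 12.22, 12.10 and 12.23 with HGF and 10.68, 10.22, 10.25 and 10.47 in Control. The HGF rise was 1.74 ± 0.12 (adjusted p = 9.98e-09), and both inhibitor groups overlapped Control. TAGLN, the smooth muscle transgelin, averaged 5.17 with HGF and 5.02 in Control, and CNN2, a further calponin, averaged 7.37 with HGF and 7.43 in Control, neither passing (adjusted p = 0.231 and 0.696). The CNN2 set gave an identical value, 7.26, on Control 3, Control 4 and HGF + PD 1, so it may lie near a floor.

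Tropomyosins, rods that lie along the filament and control access to it, differed between genes. TPM4 read 12.73, 12.76, 12.68 and 12.78 in HGF + PD, 13.00, 12.86 and 12.92 in HGF + UO, 14.28, 14.32, 14.19 and 14.27 with HGF and 12.65, 12.60, 12.70 and 12.72 in Control. Its rise with HGF was 1.60 ± 0.04 (adjusted p = 4.1e-13), and the HGF + UO arrays lay above those of Control and of HGF + PD. TPM3 rose by 0.77 ± 0.05. TPM1 changed by 0.11 ± 0.05, which did not pass (adjusted p = 0.057), and TPM2 averaged 4.40 with HGF and 4.44 in Control (adjusted p = 0.373). TPM1 passed without Control 1 or without HGF 1 (adjusted p of 0.0336 to 0.0406), with each array centred on its median (0.00397), with a filter at a log2 of 6 (0.0495), with the mean of its probe sets (0.0373) and with only the 2 groups compared (0.0461), and 1 of its 3 dimmer sets rose, by 0.23. TPM1 was lower than HGF by 0.54 in HGF + PD and by 0.48 in HGF + UO. Of the 5 dimmer TPM4 sets 4 rose, by 1.11 to 2.35, and 1 fell by 0.17 (adjusted p = 0.0337). The set that fell gave an identical value, 9.18, on HGF 1, HGF 2, HGF 4, HGF + UO 1 and HGF + UO 3. It may lie near a floor.

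MYH9, a heavy chain of non-muscle myosin II, was the only gene of that motor on the list that was measured. It read 9.84, 10.25, 10.20 and 10.16 in HGF + PD, 10.80, 10.50 and 10.74 in HGF + UO, 11.35, 11.68, 11.80 and 11.74 with HGF and 10.75, 10.77, 10.74 and 10.73 in Control. The change with HGF alone was 0.90 ± 0.10 (adjusted p = 3.57e-06), with no overlap. The HGF + PD arrays lay below every other array. Its other 3 probe sets rose with HGF by 0.89 to 1.19.

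The membrane linkers were split too, 2 of 4 rising. MSN, moesin, which ties filaments to the plasma membrane, read 10.40, 10.48, 10.30 and 10.46 in HGF + PD, 10.73, 10.45 and 10.73 in HGF + UO, 11.45, 11.53, 11.61 and 11.46 with HGF and 10.83, 10.76, 10.82 and 10.75 in Control. With HGF alone the rise was 0.73 ± 0.06 (adjusted p = 2.22e-07), and every array with an inhibitor lay below every Control array. ANXA1, annexin A1, a calcium-dependent membrane binder, read 15.28, 15.20, 15.18 and 15.25 in HGF + PD, 15.23, 15.31 and 15.31 in HGF + UO, 15.87, 15.77, 15.78 and 15.82 with HGF and 15.46, 15.49, 15.51 and 15.49 in Control. The inhibitor groups were again below Control. ANXA1 rose by 0.32 ± 0.03 with HGF (adjusted p = 2.79e-07), and its dimmer sets rose by 0.59 and 1.43.

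The 2 close relatives of moesin did not pass with HGF on their brightest probe sets. EZR, ezrin of the microvilli, read 13.80, 13.76, 13.75 and 13.85 in HGF + PD and 13.63, 13.53 and 13.59 in HGF + UO. It read 13.79, 13.84, 13.78 and 13.78 with HGF and 13.83, 13.77, 13.80 and 13.87 in Control, a change of -0.02 ± 0.03 (adjusted p = 0.62), though it passed as lower after quantile normalisation (adjusted p = 0.0199). RDX, radixin, read 12.23, 12.30, 12.15 and 11.69 in HGF + PD and 12.84, 12.81 and 12.55 in HGF + UO. It read 13.11, 13.20, 13.06 and 12.97 with HGF and 13.08, 13.11, 13.03 and 12.81 in Control, a change of 0.08 ± 0.12 (adjusted p = 0.62), while 1 of its other 2 sets rose by 0.31 (adjusted p = 0.0219). Both were lower in an inhibitor group. RDX changed against HGF by -0.99 ± 0.12 in HGF + PD (adjusted p = 4.67e-06) and by -0.35 ± 0.13 in HGF + UO (adjusted p = 0.0308). The second call was lost without HGF + UO 3, HGF 1 or HGF 2 (adjusted p up to 0.147). EZR changed against HGF by -0.01 ± 0.03 in HGF + PD and by -0.21 ± 0.03 in HGF + UO (adjusted p = 0.894 and 8.9e-05). The probe sets of EZR disagree for HGF + PD: 1 of the other 2 was lower than HGF by 0.61 ± 0.07 (adjusted p = 4.63e-06).

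All 4 adhesion plaque genes rose with HGF. FHL2, a LIM-domain protein found at adhesions and in the nucleus, read 12.53, 12.59, 12.71 and 12.58 in HGF + PD, 12.47, 12.37 and 12.36 in HGF + UO, 14.33, 14.32, 14.37 and 14.41 with HGF and 12.67, 12.79, 12.78 and 12.75 in Control. It rose with HGF, and the change was 1.61 ± 0.04 (adjusted p = 9.28e-13), with the HGF arrays above all others. Against HGF the change was -1.76 ± 0.04 in HGF + PD and -1.95 ± 0.05 in HGF + UO. ZYX, zyxin of mature adhesions, read 8.11, 8.87, 8.27 and 7.95 in HGF + PD, 8.98, 8.25 and 8.78 in HGF + UO, 9.73, 9.99, 10.50 and 10.34 with HGF and 9.36, 8.94, 9.48 and 8.69 in Control. The HGF rise was 1.02 ± 0.24 (adjusted p = 0.0021), with no overlap.

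VCL, vinculin, which links talin to actin, had the widest spread on the list. It read 4.94, 6.68, 5.54 and 5.55 in HGF + PD and 6.67, 5.75 and 6.77 in HGF + UO. It read 7.03, 7.87, 8.31 and 8.05 with HGF and 7.15, 6.78, 7.27 and 6.27 in Control, so that HGF 1 lay below 2 Control arrays. The rise was 0.95 ± 0.37 (adjusted p = 0.0426) and did not pass without Control 2, Control 4, HGF 2, HGF 3 or HGF 4 (adjusted p from 0.0769 to 0.126). VCL changed against HGF by -2.14 ± 0.37 in HGF + PD (adjusted p = 0.000184) and by -1.42 ± 0.40 in HGF + UO (adjusted p = 0.00817). Without HGF + UO 2 the second call was lost (adjusted p = 0.0538). TLN1, talin, which couples integrins to actin, rose by 0.41 ± 0.08 (adjusted p = 0.000569).

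Single arrays stood at one end of their group for many of these genes. Within the HGF group, HGF 1 was the lowest array for 25 of the 41 genes, or 61.0%, and for 36.9% of all probe sets. Within HGF + UO, HGF + UO 1 was the highest for 24 genes, or 58.5%, and for 33.4% of all probe sets. HGF + PD 2 was the highest of its group for 17 genes, or 41.5%, and for 30.7% of all probe sets. HGF + PD 1 was the lowest for 19, or 46.3%, and for 33.8% of all probe sets, and HGF + UO 2 for 21, or 51.2%, and for 43.9%. Control 4 was the lowest for 18 genes, or 43.9%, and for 25.9% of all probe sets. Without HGF 1, all 32 genes that rose with HGF still passed.

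Several genes carry more than 1 probe set, which allows the size of a change to be compared within a gene. Of the 23 genes with several sets in use, 21 had a larger HGF change on a set dimmer than the brightest, 17 did for HGF + PD against HGF and 20 for HGF + UO against HGF. These genes have 46 dimmer sets, and a gene counted if any 1 of its own changed more. Genes with more sets thus had more chances to count. How many would count with no link between brightness and change was not worked out. CAPZA2 rose by 0.74 on its brightest set and by 0.96 and 1.29 on the dimmer ones. Of the 38 other probe sets of genes called for HGF against Control, 34 were called in the same direction and 2, of ARPC1A and TPM4, in the opposite one. That TPM4 set may lie near a floor. For ANXA1, CAPZA2, ARPC4, ACTR2, CTTN, CAPZA1 and CFL2, among others, the change given by the brightest set is the smallest of the gene.

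**Figure D4:**
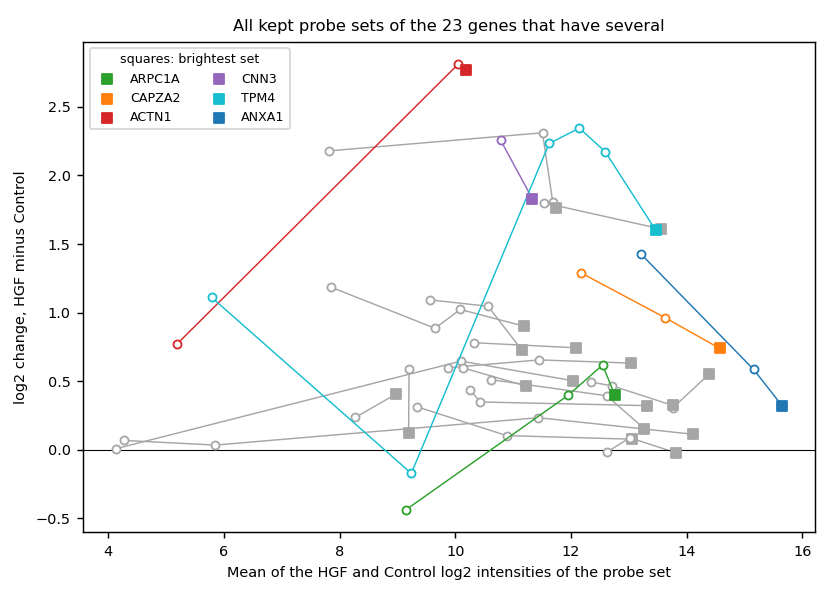
HGF change of every probe set in use of the 23 genes with several, against the mean of its HGF and Control levels, with lines joining the sets of a gene and squares for the brightest. ANXA1, CAPZA2 and CNN3 climb towards their dimmer sets. Furthest below 0 lie 1 set of ARPC1A and 1 of TPM4, the second possibly near a floor. EZR also has sets just below 0, its brightest at -0.02.

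Cultures given HGF with an inhibitor were also set against Control. In HGF + PD 17 of the 41 genes were lower than Control, 5 higher and 19 did not pass, where 14.3% of all probe sets were lower and 20.2% higher. The arrays of 16 genes did not overlap, against 39.5% of all probe sets, and 1 gene, VCL, differed by 1 or more, against 3.29%. The median difference was -0.10, against -0.02 over all probe sets. In HGF + UO 10 genes were lower, 6 higher and 25 did not pass, where 10.3% of all probe sets were lower and 11.9% higher, and the median difference was -0.06. Here 20 genes did not overlap, against 31.7%, and 0 differed by 1 or more, against 2.3%. Without Control 3 the first count of 17 was 11. Both comparisons share the Control arrays, so their resemblance is not tested.

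In HGF + PD all 4 adhesion plaque genes were lower than Control. Of all the genes called lower, VCL differed most, by -1.19 ± 0.37 (adjusted p = 0.0234), then RDX by -0.91 ± 0.12 (3.79e-05) and ZYX by -0.82 ± 0.24 (0.016), followed by ACTN1 at -0.74 and MYH9 at -0.63. The arrays of VCL and of ZYX overlapped between HGF + PD and Control, where HGF + PD 2 was the highest of its group, and those of RDX and MYH9 did not. The VCL call was lost without Control 1, Control 3, HGF + PD 1, HGF + PD 3 or HGF + PD 4 (adjusted p up to 0.0758), and that of ZYX without Control 3 or HGF + PD 4 (up to 0.0552). TLN1 was lower by 0.44 (adjusted p = 0.000773) and FHL2 by 0.15 (0.0172), the second lost without Control 2, Control 3 or HGF + PD 1 (up to 0.0533). RDX was lower on its other 2 probe sets as well, by 0.42 and 0.35. The remaining lower genes were VASP (-0.45), CAPG (-0.44), TPM1 (-0.42), MSN (-0.38), ANXA1 (-0.26), CFL2 (-0.19), ARPC1B, ACTR2 (both -0.17), ARPC2 (-0.11) and ARPC3 (-0.06). The last 3 each lost their call without any of 5 or more single arrays (adjusted p up to 0.145). EZR was not called on its brightest set, but with the mean of its probe sets it passed as lower, at -0.20 (adjusted p = 6.6e-05).

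The 5 genes higher in HGF + PD than in Control were CNN3 at 0.56 ± 0.07 (adjusted p = 4.11e-05), CFL1 at 0.40 ± 0.06 (7.95e-05), CORO1C at 0.23 ± 0.07 (0.0279), CTTN at 0.19 (0.00409) and CAPZA2 at 0.12 (0.0476). Each of these had risen with HGF alone. The CORO1C call was lost without Control 2, Control 4, HGF + PD 1, HGF + PD 2 or HGF + PD 4 (adjusted p from 0.0629 to 0.0856), and the CAPZA2 call without Control 1, Control 2, Control 3, HGF + PD 1 or HGF + PD 3 (0.0796 to 0.139).

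In HGF + UO the lowest genes against Control, among those called, were ACTN1 at -0.63 ± 0.17 (adjusted p = 0.019), CAPG at -0.54 ± 0.06 (3.26e-05) and ARPC1B at -0.37 ± 0.05 (9.58e-05). TPM1, FHL2, ARPC5, EZR, ANXA1, ARPC4 and ARPC2 were lower by 0.37, 0.34, 0.27, 0.24, 0.21, 0.20 and 0.12, the last 2 lost without any of 5 single arrays each (adjusted p up to 0.219). The highest of those called were PFN1 at 0.33 ± 0.10 (adjusted p = 0.0279), CNN3 at 0.30 ± 0.08 (0.0127) and TPM4 at 0.26 ± 0.04 (0.000445), with CFL1, ACTR3 and CTTN at 0.26, 0.17 and 0.16. No call was made for VCL, ZYX, TLN1, MYH9 or RDX, though RDX was lower on its other 2 probe sets, by 0.38 and 0.50. The ACTN1 call was lost without Control 3, HGF + UO 2 or HGF + UO 3 (adjusted p from 0.0525 to 0.079), the PFN1 call without Control 4, HGF + UO 1 or HGF + UO 2 (0.0659 to 0.129) and the CNN3 call without HGF + UO 1 or HGF + UO 3 (0.0546 to 0.0599). CTTN and ACTR3 also lost theirs without single arrays (adjusted p up to 0.0818 and 0.0658). With the mean of all probe sets of a gene, TPM4 differed by 0.13 (adjusted p = 0.152) and CTTN by 0.08 (0.255), and neither passed.

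**Figure D5:**
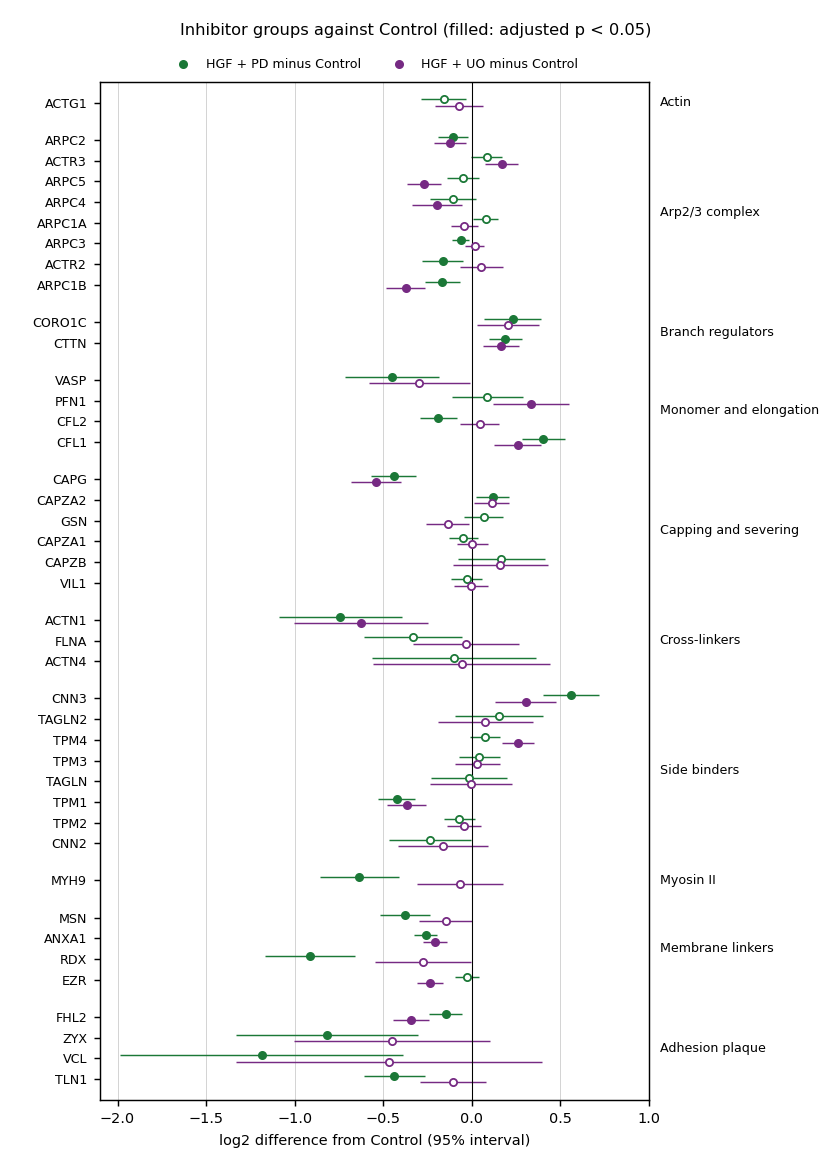
Difference from Control of the 41 genes, by role, with 95% intervals for HGF + PD and HGF + UO and filled points at an adjusted p under 0.05. Most points lie within 0.5 of 0, VCL, RDX and ZYX lie furthest left in HGF + PD, and CNN3 lies furthest right.

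The inhibitor groups were also compared with each other, as treatments at different doses (10 uM of UO126 and 50 uM of PD09859). Of the 41 genes, 6 were higher in HGF + UO, 6 lower and 29 did not pass, where 2.55% of all probe sets were higher and 6.66% lower. The arrays of 14 genes did not overlap, against 21.3%, and 0 differed by 1 or more, against 0.289%. Among the genes called, the widest differences towards higher values in HGF + UO were RDX at 0.64 ± 0.13 (adjusted p = 0.00783), MYH9 at 0.57 ± 0.11 (0.00768) and TLN1 at 0.33 ± 0.09 (0.0322). For TLN1 the arrays read 8.77, 8.58 and 8.66 in HGF + UO and 8.19, 8.35, 8.40 and 8.41 in HGF + PD. The arrays of these 3 genes did not overlap between the groups. The RDX difference was not seen on its other sets, at 0.04 ± 0.10 and -0.15 ± 0.11, and the MYH9 sets other than the brightest differed by 0.24 to 0.33, none passing. The other TLN1 set differed by 0.03, and the TLN1 call was lost without HGF + PD 1, HGF + PD 4, HGF + UO 1 or HGF + UO 3 (adjusted p from 0.0525 to 0.118).

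ARPC5 was lower in HGF + UO than in HGF + PD by 0.22 ± 0.05 (adjusted p = 0.00848, or 0.105 with the mean of its probe sets), with readings of 11.52, 11.53 and 11.48 in HGF + UO and 11.77, 11.68, 11.69 and 11.79 in HGF + PD. EZR was lower by 0.21 ± 0.03 (adjusted p = 0.00234) and, on 1 of its other 2 probe sets, by 0.24. ARPC1B was lower by 0.21 ± 0.05 (adjusted p = 0.0218), a call lost without HGF + PD 3, HGF + PD 4 or any 1 HGF + UO array (adjusted p from 0.052 to 0.0749). The other calls were CFL2 (0.23), ACTR2 (0.22) and TPM4 (0.19) as higher and GSN (-0.20), FHL2 (-0.20) and ARPC1A (-0.12) as lower, each lost without at least 1 array. For the 4 genes with the largest HGF changes no difference was called: it was 0.12 for ACTN1 (95% interval -0.26 to 0.49), -0.10 for CAPG (-0.24 to 0.04), -0.26 for CNN3 (-0.43 to -0.09) and 0.30 for FLNA (0.00 to 0.60). The arrays of CNN3 did not overlap between the groups (adjusted p = 0.0568), and it passed as lower with a filter at a log2 of 6 (0.0466) and with the mean of its probe sets (0.0121).

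Genes that act on actin but are not on the list were read by 4 further lists, and these were mixed in direction. Of 22 nucleation promoters and monomer handlers 10 rose and 8 fell, with WDR1, which helps cofilin disassemble filaments, up by 1.83, CYFIP1 of the WAVE complex up by 1.77 and ENAH, a relative of VASP, up by 0.97. Of 24 other bundlers and filament binders 6 rose and 5 fell, led by PDLIM5 (1.40), PLS1, a microvillus bundler (-0.66), and PDLIM1 (0.66). Of 12 other myosins 5 rose and 4 fell, with the light chain MYL6 up by 0.42, MYO1C by 1.02 and MYO5B by 0.69. Of 14 other adhesion linkers 6 rose and 3 fell, with ANXA2 up by 0.73, ILK by 1.20 and LIMS1 by 0.84. The share of genes higher was 78.0% among the 41 genes and 45.5%, 25.0%, 41.7% and 42.9% in these 4 lists in the same order, beside 26.3% over all probe sets. The last share rests on all sets kept, the others on the brightest set of each gene. No share matched for brightness was computed. The 41 genes and the lists were chosen with earlier results of these data known, so the shares are descriptions only.

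All values come from whole cultures, so more RNA of a gene per cell and more cells making it cannot be told apart. Calls of cell type markers here compare HGF with Control unless another pair is named. Markers of muscle, which shares many actin-binding proteins, mostly did not pass. Of 6 measured, SMTN rose by 0.75 and 5 did not pass. Against HGF, 3 of the 6 were lower in HGF + PD and 1 in HGF + UO, where 25.1% and 25.2% of all probe sets were lower. Summed intensities of the muscle list were 773 to 855 in HGF + PD, 800 to 859 in HGF + UO, 917 to 997 with HGF and 819 to 898 in Control. Of the 3 measured leukocyte markers CD68 rose by 3.03 ± 0.52, CD3E fell by 0.15 and CD14 did not pass, with sums of 109 to 115 in HGF + PD, 114 to 125 in HGF + UO, 139 to 382 with HGF and 123 to 127 in Control. Of 5 fibroblast markers PDGFRB fell by 0.26 and 4 did not pass, and none of 4 endothelial markers passed. The epithelial markers moved both ways, CDH1 and CLDN4 rising by 0.60 and 1.04 and CDH16, EPCAM, OCLN and KRT18 falling by 3.00, 0.73, 0.78 and 0.48. Their part in the changes of the actin genes was not tested.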

How the data were processed

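Biotin-labelled RNA of MDCK cells was read on Affymetrix canine arrays, per the labels' protocols. The authors deposited 1 linear intensity per probe set and array. Per the submitters' processing notes these come from GCRMA, which subtracts a background estimated from probe sequence and normalises between arrays, which draws dim probe sets towards a floor. The GCRMA version was not given in the sources used here. There were 43035 probe sets in all. Log2 was taken with no further scaling, 111 control probe sets were left out, and 24904 probe sets were kept that reached a log2 of 4 on 3 or more of the 15 arrays. Of all probe sets, 29264 had 1 symbol in the platform annotation, 439 had several and were not named, and 13332 had none listed. The brightest probe set over all arrays stood for a gene.

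limma 3.58.1 in R 4.3.3 fitted 1 mean per group to all 15 arrays, with eBayes and a variance trend, and Benjamini-Hochberg adjustment over the probe sets kept, at a threshold of 0.05. All 6 pairs of groups were compared. Array measures were compared with exact permutation tests. The fit was tested on simulated data. Alternatives changed the filter, scale, normalisation, variance model, arrays in the fit, block and choice of probe set, and left out each array in turn. The genes, their roles and the lists were chosen with earlier results of these data known. Values per array are given for the 2 genes of each role with the largest HGF change past the threshold, for ACTB and ACTG1, for the 3 genes with the largest change each way in every other comparison, and for genes against the majority, with a few neighbours of these added for comparison (ARPC1A, TPM1). Of each further list the 3 genes with the lowest adjusted p are named. Results of 1 further list are not reported here. Replicate numbers were not used to pair the arrays in the main fit, and the labels do not say whether cultures were paired. Deviations of same-numbered arrays from their group means correlated between -0.25 and 0.41. The correlation was over 0.1 in 3 of 4 pairs for HGF + PD against HGF and in 2 of 3 for HGF + UO against HGF. Sequences are not shown here. The number of arrays limits the precision.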

Additional observations from a re-analysis of the deposited data

Results flagged for a closer look

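In 7 of the 132 groups of 4 arrays examined, 1 array lay far from the other 3, where chance gives about 1 in 20 groups. ARPC1A read 12.64 on Control 1, against 12.52 to 12.54 on the other Control arrays, and PFN1 read 11.78 on Control 4, against 12.10 to 12.13. TPM2 read 4.57 on Control 4, against 4.39 to 4.41. On HGF 2, CNN2 read 7.67, against 7.27 to 7.28 on the other HGF arrays, and TAGLN read 5.59, against 5.03. TAGLN2 read 10.28 on HGF + PD 1, against 10.63 to 10.68 in the rest of its group. The median of the 41 genes was 11.77 on HGF + PD 1, against 11.68 to 11.69 on the other HGF + PD arrays.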

How the results depend on the processing

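No gene of the list changed direction while called, in any comparison or alternative: of the gene values recomputed, 4064 kept their side of the threshold, 186 lost a call and 43 gained one. Over the 10 alternatives other than leaving out an array, 31 to 34 genes were higher with HGF, 32 to 35 lower in HGF + PD than in HGF and 34 to 36 lower in HGF + UO than in HGF. Quantile normalisation gave 2 genes lower with HGF. For HGF + PD against Control, 3 genes were higher with only the 2 groups compared and 3 after quantile normalisation. For HGF + UO against HGF + PD, 3 were lower with each array centred on its median, 1 higher with the mean of a gene's probe sets, and 1 higher and 2 lower with only the 2 groups compared. Leaving out 1 array at a time gave 30 to 33 genes higher and 1 lower with HGF, 32 to 34 lower in HGF + PD and 33 to 35 in HGF + UO than in HGF, 3 to 5 higher and 11 to 18 lower in HGF + PD than in Control, 3 to 6 higher and 7 to 9 lower in HGF + UO than in Control, and 3 to 8 higher and 2 to 6 lower in HGF + UO than in HGF + PD. The cause of these moves was not tested. With the replicate number as a block, 31 genes were higher and 1 lower with HGF, 34 and 35 were lower in HGF + PD and HGF + UO than in HGF, 4 were higher and 15 lower in HGF + PD than in Control, 6 and 10 in HGF + UO, and 5 and 4 in HGF + UO against HGF + PD. The difference between inhibitor groups is the least firm: most of its calls are lost under some alternative, including that of RDX with only the 2 groups compared (adjusted p = 0.0655) or the mean of its probe sets (0.211), and that of MYH9 with the mean of its probe sets (0.197). The rise of VCL with HGF did not pass without a filter (adjusted p = 0.0763) or with the replicate block (0.0548), nor did the lower RDX of HGF + UO against HGF without a filter (0.0555). Probe sets near the floor (TPM2, TAGLN) limit what can be seen for those genes. The brightest sets of VIL1 and CNN2 gave identical values on several arrays (6.69 and 7.26). They may lie near a floor as well, so a change in these genes could go unseen.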

Other observations

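Among further genes that act on actin, some moved against the 41. The bundlers PLS3 and DBN1 fell with HGF, by 0.75 ± 0.07 and 1.04 ± 0.09 (adjusted p = 1.8e-07 and 1.77e-07), and EVL, a relative of VASP, by 0.80 ± 0.16 (adjusted p = 0.000621). DBN1, drebrin, averaged 9.43 in HGF + PD, 9.75 in HGF + UO, 8.40 with HGF and 9.45 in Control. PLS3, plastin 3, averaged 11.72 in HGF + PD, 12.29 in HGF + UO, 11.74 with HGF and 12.48 in Control, so it was lower than Control in HGF + PD (adjusted p = 6.95e-07) and did not pass in HGF + UO (0.0614). CAP2, which recycles actin monomers, averaged 5.72 in HGF + PD, 5.41 in HGF + UO, 5.79 with HGF and 4.17 in Control. It was higher than Control by 1.63, 1.55 and 1.24 in HGF, HGF + PD and HGF + UO, and no difference from HGF passed in either inhibitor group (adjusted p = 0.676 and 0.0519). The Control average of CAP2 lies close to the level of 4 used as a filter, so the sizes of its rises are less sure. These 4 genes were chosen after their values were seen.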
